A study of Homo sapiens with 21 samples.

Results

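Histone genes were followed in 3 human acute myeloid leukaemia cell lines after knockdown of SYK, a non-receptor tyrosine kinase of immune-receptor signalling. Members were taken by name: every probe set (a group of short probes that reads 1 transcript or a few near-identical ones) whose current gene symbol is that of a histone H1, H2A, H2B, H3 or H4 gene under the prefixes of the replication-dependent clusters or of the replacement variants H2AZ, H2AX, H2AJ, H3-3 and H1-10. The rule used no expression value and found 80 of the 22277 probe sets on the array, of which 22215 remained for the tests after Affymetrix controls were left out. These 80 carried 65 symbols, including the H3-3A pseudogenes H3P6 and H3P16. Of the 80, 61 belonged to 56 clustered, replication-dependent genes and 19 to 7 replacement genes. Each line, MOLM-14, U937 or HL-60, carried a short hairpin RNA against luciferase (shLuc), which human cells lack, or 1 of 2 hairpins against SYK (shSYK_1 and shSYK_2). All groups were selected with puromycin at 1 µg/ml from 48 h after infection and gave RNA at day 5. With 3 shLuc arrays, 2 of shSYK_1 and 2 of shSYK_2 per line, there were 21 arrays in 9 groups. MOLM-14 is monocytic and known for an internal tandem duplication in FLT3, U937 is also monocytic, and HL-60 is promyelocytic. Each is an established line that stands for 1 patient's tumour.

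Histones are the proteins on which DNA is wound into nucleosomes. The core histones H2A, H2B, H3 and H4 form the nucleosome's centre and H1 binds the linker DNA. Most are made from intronless genes in clusters, mainly on chromosome 6, that are transcribed in S phase to supply new chromatin. Their messenger RNAs end in a stem-loop bound by SLBP in place of a poly(A) tail, although some clustered genes also give polyadenylated transcripts, for example in cells that leave the cycle. The genes called replacement here lie outside the main clusters and are expressed also outside S phase, mostly as polyadenylated transcripts. H2AX is known to give both a stem-loop and a polyadenylated transcript.

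The target sites of the 3 hairpins, 21 bases each as the labels give them, are shown because the results below differ between the SYK hairpins.

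shLuc: cctaaggttaagtcgccctcg

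shSYK_1: gcagcagaacagacatgtcaa

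shSYK_2: gcaggccatcatcagtcagaa

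The 250 bases upstream of the annotated starts of H2BC12, H2BC5, H2AC6 and H2AZ1 are shown because these genes carry the largest differences of each class. They were read from the RefSeq promoter table of GRCh38.p14. Capitals mark matches on either strand to the octamer ATTTGCAT, a known element of H2B promoters, to CCAAT and to TATAAA, and neighbouring matches can overlap.

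H2BC12, chr6:27146859-27147108, - strand: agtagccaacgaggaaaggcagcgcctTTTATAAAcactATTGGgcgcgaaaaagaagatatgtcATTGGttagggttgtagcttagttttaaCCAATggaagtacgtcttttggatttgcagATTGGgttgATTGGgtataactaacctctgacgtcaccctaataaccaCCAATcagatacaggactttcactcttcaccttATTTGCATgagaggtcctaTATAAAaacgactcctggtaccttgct

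H2BC5, chr6:26157871-26158120, + strand: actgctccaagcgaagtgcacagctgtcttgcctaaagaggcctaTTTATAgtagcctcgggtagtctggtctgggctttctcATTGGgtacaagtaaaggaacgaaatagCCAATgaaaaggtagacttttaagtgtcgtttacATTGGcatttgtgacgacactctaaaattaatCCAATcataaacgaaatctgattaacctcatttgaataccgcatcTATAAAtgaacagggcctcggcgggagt

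H2AC6, chr6:26123922-26124171, + strand: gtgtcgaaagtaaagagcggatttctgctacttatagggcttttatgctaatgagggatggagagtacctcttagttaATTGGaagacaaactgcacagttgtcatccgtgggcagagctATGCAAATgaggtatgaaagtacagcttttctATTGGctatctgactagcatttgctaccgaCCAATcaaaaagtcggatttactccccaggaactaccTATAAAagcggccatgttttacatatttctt

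H2AZ1, chr4:99950276-99950525, - strand: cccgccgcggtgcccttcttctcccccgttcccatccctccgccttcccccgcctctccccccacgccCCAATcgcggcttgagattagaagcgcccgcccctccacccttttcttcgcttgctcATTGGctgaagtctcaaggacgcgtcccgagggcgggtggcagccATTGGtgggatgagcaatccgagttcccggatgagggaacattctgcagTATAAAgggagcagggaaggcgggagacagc

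Of the 65 member symbols, 59 matched the table, which holds windows for 27305 genes. The octamer was present in 12 of 15 clustered H2B genes (80%) and 7 of 12 clustered H2A genes (58.3%), against 1.66% of all windows of this length. It was present in 1 of 7 clustered H3 genes and 1 of 7 replacement genes, and these letters were not in the windows of the 6 H1 and 12 H4 genes. Windows of divergent neighbours overlap, as for H2AC6 and H2BC4 or H3C4 and H2BC7, so the same letters can count for both genes. CCAAT was in every clustered H1, H2A, H2B and H3 window, in 3 of 12 H4 windows and in 6 of 7 replacement windows, against 33% of all windows. TATAAA was in 11 of 15 H2B and 9 of 12 H2A windows, against 11.1% of all. It was also in 3 of 6 H1, 4 of 7 H3, 6 of 12 H4 and 4 of 7 replacement windows. A match is a run of letters and not evidence that a factor binds there.

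The SYK transcript was reduced by both hairpins in each line, with no overlap with shLuc. Against shLuc, its log2 intensity fell by 2.29 with shSYK_1 and 2.96 with shSYK_2 in MOLM-14, by 1.68 and 2.13 in U937 and by 1.97 and 2.21 in HL-60, with n = 3 shLuc and n = 2 arrays per hairpin. Over the lines the fall was 3.95-fold with shSYK_1 and 5.39-fold with shSYK_2, and the hairpins differed (log2 difference -0.45, SE 0.053, limma adjusted p = 4.19e-06). Median intensity was 18.4 to 20.6 on the 21 arrays. The labels of HL-60 shSYK_2 replicate 1 conflict, since its title and treatment name shSYK_2 and its source name shSYK_1. It was kept in shSYK_2. Its upper quartile of intensity was 122.3, against 134.49 to 139.77 on the other arrays. Myeloid markers were above the level of the dimmest 40% of probe sets (log2 3.57) for 8 of 10 in MOLM-14 and U937 and 10 of 10 in HL-60. The same level was passed by 2 of 6 T and NK cell markers in each line, by at most 1 of 2 B cell markers, by 2 or 3 of 3 erythroid markers, none of which exceeded 3.83, and by 1 of 4 epithelial markers. In RNA from a whole culture, fewer cells of a type and less RNA per cell cannot be told apart.

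The signal and the sequence of the genes limit what each histone probe set can say. The clustered probe sets were mostly dim: 24 of 61 had a mean log2 intensity above 3.57, and their median was 3.21 (range 2.12 to 11.27). Of the replacement probe sets 17 of 19 were above it, with a median of 10.35 (2.54 to 12.73). Clustered histone genes are near-identical in sequence, and 14 clustered probe sets are of the _x_at type, 7 of the _s_at type and 6 list several genes, so that the gene assignment of these is uncertain. How the RNA was primed for labelling, which matters for transcripts without a poly(A) tail, is not given in the sources used here.

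With shSYK_2, probe sets of the clustered genes H2BC12, H2BC5, H2BC6, H2BC9 and H2AC6 rose in each of the 3 lines. Those of H2BC5, H2BC6 and H2BC9 are all of the _x_at type and that of H2AC6 is of the _s_at type. Their gene assignment is uncertain. Both H2AZ1 probe sets and 1 of 3 H2AZ2 probe sets fell in each line. In the average of the lines, 16 of 61 clustered probe sets rose (26.2%) and 3 fell (4.92%), where 12.6% of all probe sets tested rose and 13.6% fell (limma, Benjamini-Hochberg adjusted p under 0.05 over all 22215 probe sets). Of the 19 replacement probe sets 1 rose (5.26%) and 9 fell (47.4%). The 16 that rose were 9 of 18 H2B, 5 of 13 H2A and 2 of 10 H3 probe sets. The 3 that fell were 1 of 6 H1 and 2 of 14 H4 probe sets. The median change was 0.31 over the H2B probe sets, 0.15 over H2A, -0.03 over H1 and H3 and -0.06 over H4, beside 0.01 over all probe sets. With the 14 _x_at probe sets among the 61 clustered ones left out, 8 clustered probe sets rose, where 12.6% of all probe sets rose. The count of 16 thus rests in part on probe sets whose gene assignment is uncertain. Without HL-60 shSYK_2 replicate 1, the array with conflicting labels, 16 rose and 2 fell.

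**Figure D1:**
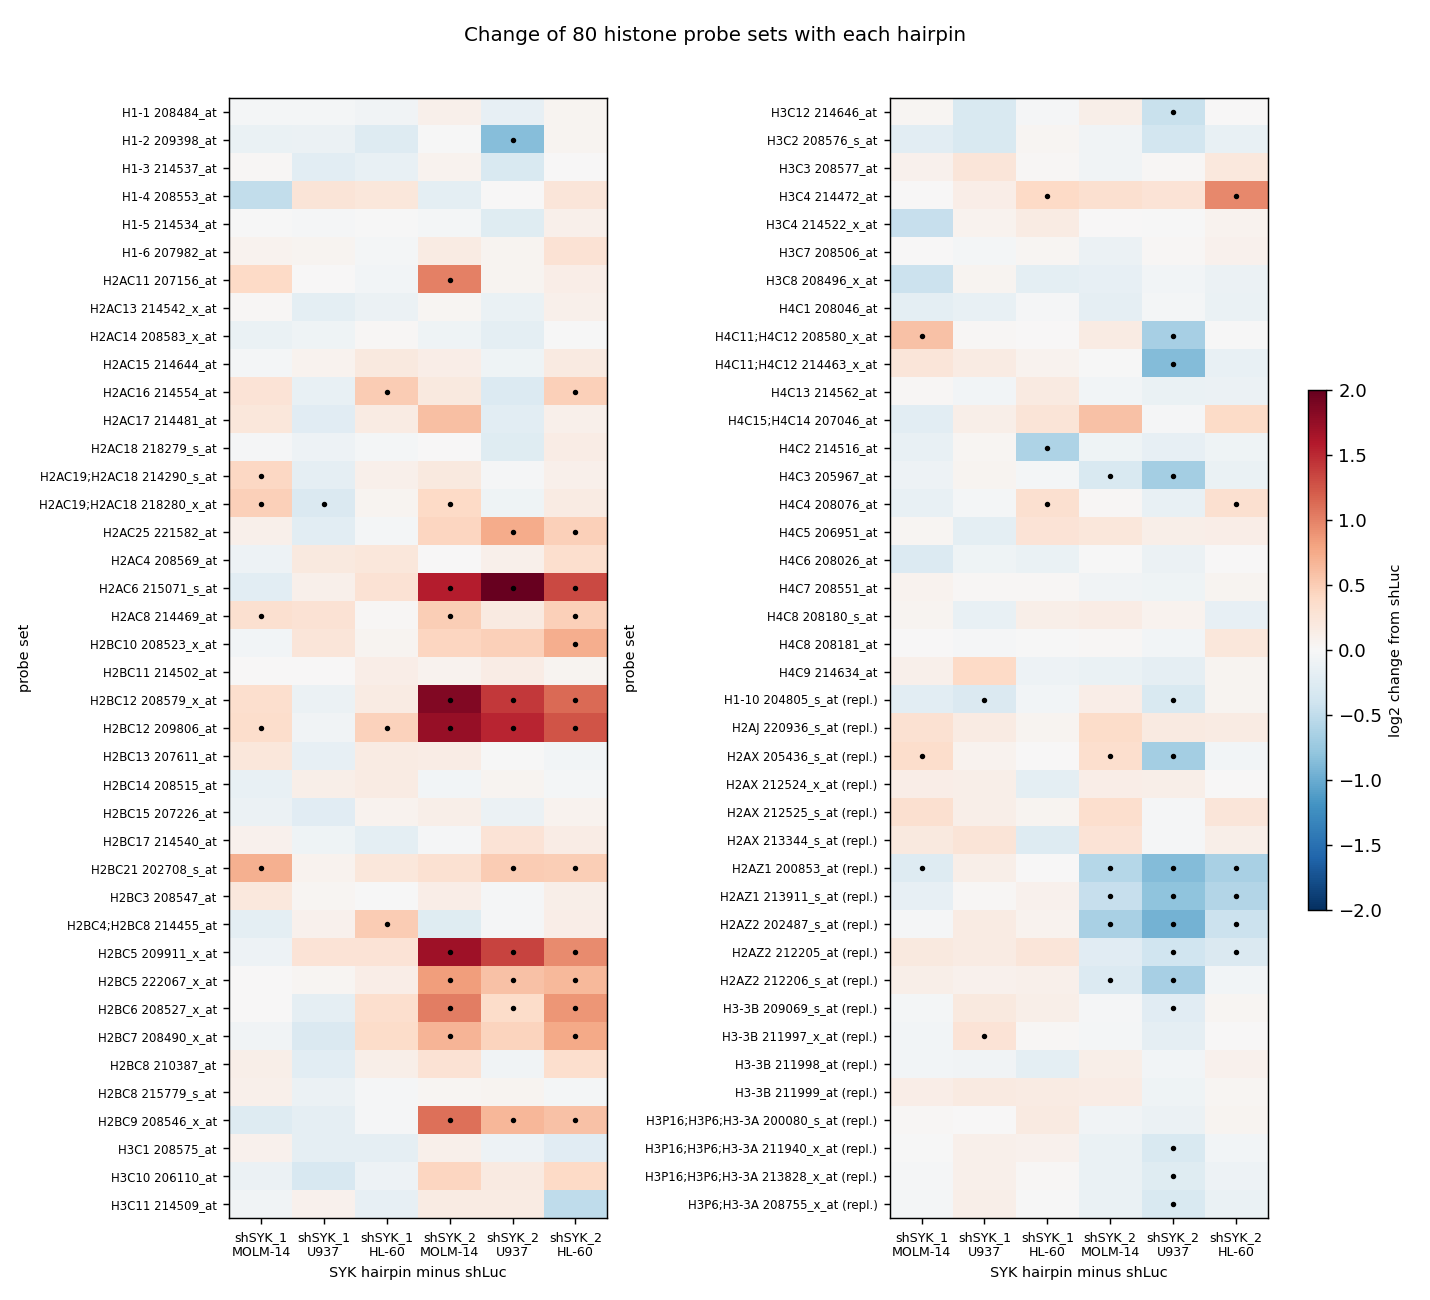
Log2 change against shLuc of all 80 histone probe sets (rows, grouped by family) for each SYK hairpin in each line (columns); colour gives the change and a dot marks an adjusted p below 0.05. The 3 shSYK_2 columns show a run of red H2B and H2A rows and blue H2AZ1 and H2AZ2 rows, and the shSYK_1 columns hold few dots.

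H2BC12 encodes a clustered H2B, and its probe set 209806_at, which lists no other gene, was the brightest of H2B. In MOLM-14 its log2 intensities were 8.21, 8.38 and 8.25 with shLuc, 8.65 and 8.62 with shSYK_1 and 10.01 and 10.04 with shSYK_2. In U937 they were 7.10, 7.20 and 7.31 with shLuc, 7.15 and 7.12 with shSYK_1 and 8.70 and 8.76 with shSYK_2. In HL-60 they were 8.69, 8.71 and 8.59 with shLuc, 9.12 and 9.12 with shSYK_1 and 9.92 and 9.94 with shSYK_2, the last being the array with conflicting labels. The shSYK_2 arrays were the highest of each line, with no overlap with either other group, and the array with conflicting labels lay beside the other shSYK_2 array. Against shLuc, H2BC12 was 3.34-fold higher with shSYK_2 in MOLM-14 (log2 change 1.74, SE 0.0732, limma adjusted p = 1.97e-10), 2.88-fold in U937 (adjusted p = 8.7e-10) and 2.4-fold in HL-60 (adjusted p = 8.3e-09). Its second probe set, 208579_x_at, rose by 1.47 over the lines (SE 0.0812, adjusted p = 1.58e-09).

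H2AC6, a clustered H2A gene, had the largest change of all members over the lines. Its log2 intensities on 215071_s_at in MOLM-14 were 5.53, 5.26 and 5.56 with shLuc, 5.10 and 5.37 with shSYK_1 and 7.09 and 6.97 with shSYK_2. In U937 they were 4.04, 3.69 and 4.12, then 4.13 and 3.97, then 5.94 and 5.98 in the same order. In HL-60 they were 5.58, 5.27 and 5.39, then 5.72 and 5.71, then 6.63 and 6.85. Both shSYK_2 arrays again stood above all others of their line, and in MOLM-14 and U937 the shSYK_1 arrays overlapped shLuc. Over the lines H2AC6 was 3.11-fold higher with shSYK_2 (log2 change 1.64, SE 0.0763, limma adjusted p = 1.89e-10), and in U937 alone 4.03-fold.

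H2BC5, another clustered H2B gene, rose on both of its probe sets. On 209911_x_at its log2 intensities in MOLM-14 were 6.14, 6.26 and 6.27 with shLuc, 6.19 and 6.03 with shSYK_1 and 7.93 and 7.89 with shSYK_2. In U937 they were 4.79, 4.54 and 4.98 with shLuc, 5.00 and 5.11 with shSYK_1 and 6.10 and 6.13 with shSYK_2. In HL-60 they were 6.43, 6.14 and 6.19 with shLuc, 6.56 and 6.49 with shSYK_1 and 7.18 and 7.22 with shSYK_2. The shSYK_2 arrays did not overlap the others in any line. The change over the lines was 2.51-fold (log2 1.33, SE 0.0634, limma adjusted p = 2.42e-10), and 0.69 on the log2 scale for the second probe set, 222067_x_at.

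**Figure D2:**
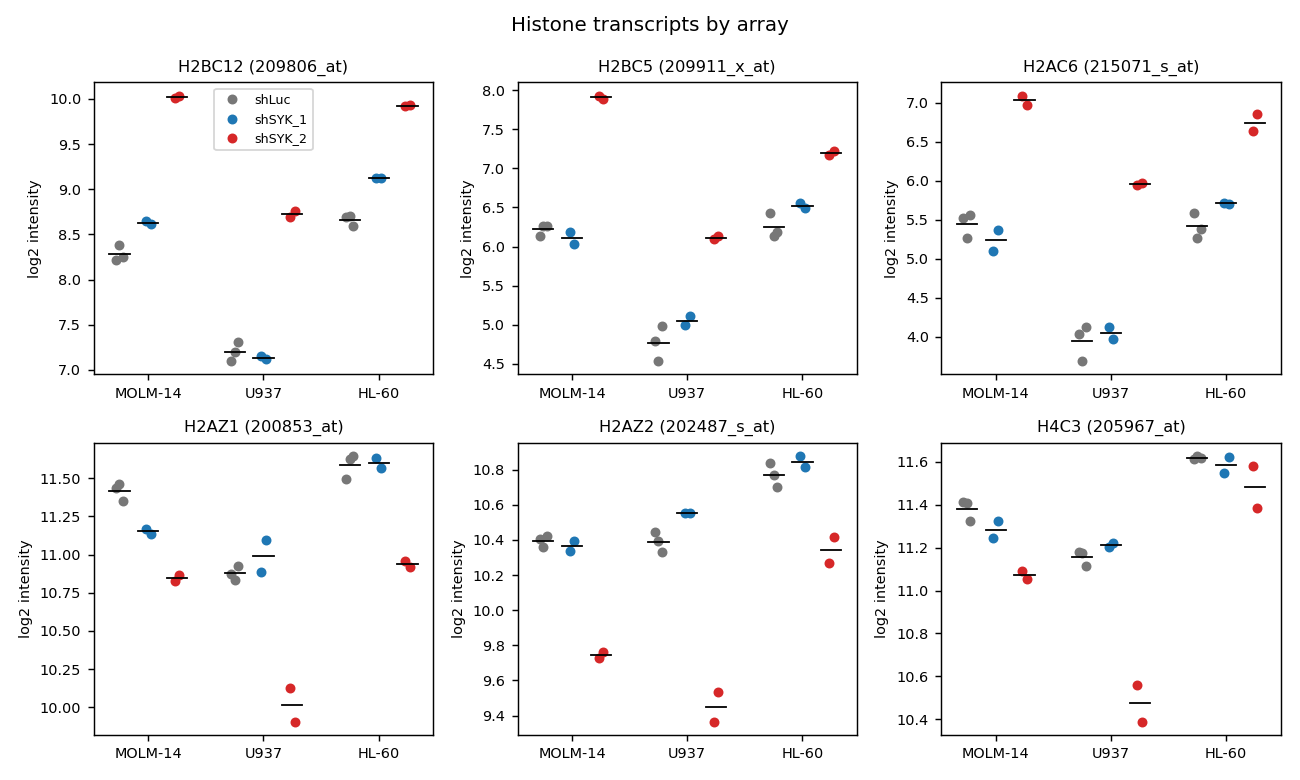
Log2 intensity on each array (points) with group means (black lines) for H2BC12, H2BC5, H2AC6, H2AZ1, H2AZ2 and H4C3, by line; grey is shLuc, blue shSYK_1 and red shSYK_2. The red points lie above all others of their line in the panels of H2BC12, H2BC5 and H2AC6 and below all others in those of H2AZ1 and H2AZ2.

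Other H2B genes moved less. H2BC9 (208546_x_at) rose by 0.78 over the lines with shSYK_2 (SE 0.0849), with called changes of 1.10 (MOLM-14), 0.66 (U937) and 0.58 (HL-60). H2BC6 (208527_x_at) rose by 0.76 (SE 0.0657), with 1.02, 0.37 and 0.89 in the same lines. H2BC7 (208490_x_at) rose by 0.63, H2BC10 (208523_x_at) by 0.54 and H2BC21 (202708_s_at) by 0.44, each called over the lines and not in every line. For H2BC7 the U937 change of 0.45 did not pass (limma adjusted p = 0.11), and the U937 arrays overlapped, at 5.58, 5.05 and 4.82 with shLuc and 5.51 and 5.70 with shSYK_2. The 7 probe sets that rose in each of the 3 lines by itself were both of H2BC12, both of H2BC5 and those of H2AC6, H2BC6 and H2BC9. They were 7 of 61 clustered probe sets, where 0.878% of all probe sets rose in every line. In 11 clustered probe sets, 8 of H2B, 2 of H2A and 1 of H3, both shSYK_2 arrays exceeded every shLuc array in each line, which held for 4.28% of all probe sets.

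Of the other H2A genes, H2AC25 (221582_at) rose by 0.55 over the lines with shSYK_2 (SE 0.0856, limma adjusted p = 0.000117), H2AC11 (207156_at) by 0.40, H2AC8 (214469_at) by 0.39 and the probe set shared by H2AC19 and H2AC18 (218280_x_at) by 0.16. The H2AC11 change was 1.01 in MOLM-14 (limma adjusted p = 0.000232) against 0.05 in U937 and 0.14 in HL-60. Among H3 genes, H3C4 (214472_at) rose by 0.52 over the lines and H3C10 (206110_at) by 0.34 (adjusted p = 0.0285). H3C4 was dim: in HL-60, where it rose most, its log2 intensity was 3.11 ± 0.0965 with shLuc (SD, n = 3) and 4.31 and 3.84 on the shSYK_2 arrays. The second H3C4 probe set, 214522_x_at, changed by 0.03 and did not pass.

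By line, clustered probe sets that rose with shSYK_2 numbered 11 in MOLM-14, 9 for U937 and 15 for HL-60, where 6.34%, 6.29% and 7.97% of all probe sets rose. Those that rose in MOLM-14 were 7 of H2B and 4 of H2A, in U937 7 of H2B and 2 of H2A, and in HL-60 9 of H2B, 4 of H2A and 1 each of H3 and H4. In HL-60 the count was 11 without the array with conflicting labels, 6 with that array placed in shSYK_1 and 7 with array weights. In U937 5 clustered probe sets fell (3 of H4, 1 of H1, 1 of H3), where 6.84% of all fell, and 3 fell without U937 shSYK_2 replicate 2. In MOLM-14 the 1 that fell was H4C3, where 7.43% of all fell. In HL-60, where 10.4% of all fell, limma called 0 clustered probe sets lower, with 1 lower at an unadjusted p under 0.05.

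H4C3, the brightest clustered probe set (205967_at), fell over the lines with shSYK_2. Its log2 intensities were 11.41, 11.41 and 11.32 with shLuc in MOLM-14 and 11.09 and 11.06 with shSYK_2. In U937 they were 11.18, 11.18 and 11.11 with shLuc and 10.56 and 10.39 with shSYK_2. In HL-60 they were 11.61, 11.63 and 11.62 with shLuc and 11.58 and 11.38 with shSYK_2, a narrow gap with no overlap. Over the lines H4C3 fell by 0.38 (SE 0.042, limma adjusted p = 3.69e-06), with changes of -0.31 in MOLM-14 and -0.68 in U937. In HL-60 its change of -0.14 did not pass (adjusted p = 0.208). The MOLM-14 call was lost without either shSYK_2 replicate of that line (highest adjusted p = 0.0848).

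The other falls among clustered genes lay in U937. H1-2, a linker histone gene (209398_at), had log2 intensities of 4.85, 4.76 and 5.13 with shLuc, 4.91 and 4.68 with shSYK_1 and 4.07 and 4.07 with shSYK_2 in U937. The shSYK_2 arrays were the lowest there, and the change was -0.84 (limma adjusted p = 0.000265), beside -0.00 in MOLM-14 and 0.06 in HL-60. Its average over the lines, -0.26 (adjusted p = 0.0156), lost its call in 4 alternatives, among them without MOLM-14 shSYK_2 replicate 2, without the array with conflicting labels and with that array in shSYK_1. A probe set shared by H4C11 and H4C12 (214463_x_at) changed by -0.86 in U937 (adjusted p = 0.000379), -0.01 in MOLM-14 and -0.16 in HL-60. H3C12 (214646_at) fell in U937 by 0.45.

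The rest of the H1, H3 and H4 classes did not pass over the lines with shSYK_2. The other 5 H1 probe sets changed by -0.07 (H1-3), -0.06 (H1-5), -0.00 (H1-1), 0.02 (H1-4) and 0.17 (H1-6), with H1-6 the highest of the class. H3 probe sets spanned -0.20 to 0.52 and 4 of 10 were above 0. H4 probe sets spanned -0.38 to 0.32 and 5 of 14 were above 0. In H2B 16 of 18 were above 0 and in H2A 10 of 13. With shSYK_1, 14 of 18 H2B and 9 of 13 H2A probe sets were above 0, with medians of 0.06 and 0.08 and ranges of -0.16 to 0.34 and -0.10 to 0.21.

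Among replacement histones, the 2 genes of H2A.Z, a variant placed at promoters and known to be abundant in dividing cells, fell with shSYK_2. H2AZ1 (200853_at) had log2 intensities in MOLM-14 of 11.44, 11.46 and 11.35 with shLuc, 11.17 and 11.13 with shSYK_1 and 10.83 and 10.87 with shSYK_2. The U937 values were 10.87, 10.84 and 10.92, then 10.88 and 11.09, then 10.13 and 9.91 in the same order. The HL-60 values were 11.50, 11.63 and 11.64, then 11.63 and 11.57, then 10.96 and 10.92. The shSYK_2 arrays were below every other array of their line, and shSYK_1 was below shLuc in MOLM-14 and overlapped it in U937 and HL-60. The fall with shSYK_2 was 1.62-fold over the lines (log2 change -0.69, SE 0.0467, limma adjusted p = 1.49e-08) and -0.61 on the second probe set, 213911_s_at.

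H2AZ2, the second H2A.Z gene (202487_s_at), had log2 intensities in MOLM-14 of 10.40, 10.36 and 10.42 with shLuc, 10.34 and 10.40 with shSYK_1 and 9.73 and 9.76 with shSYK_2. The U937 values were 10.45, 10.39 and 10.33, then 10.55 and 10.55, then 9.37 and 9.54. The HL-60 values were 10.84, 10.77 and 10.70, then 10.88 and 10.81, then 10.27 and 10.42. Again both shSYK_2 arrays were the lowest of each line. Over the lines H2AZ2 was 1.59-fold lower (log2 change -0.67, SE 0.0421, limma adjusted p = 6.21e-09), and its other probe sets, 212206_s_at and 212205_at, fell by 0.33 and 0.31. Called lower in all 3 lines were both H2AZ1 probe sets and 202487_s_at, 3 of 19 replacement probe sets, where 1.94% of all fell in every line. With the array of conflicting labels placed in shSYK_1, the HL-60 calls of 200853_at (adjusted p = 0.0979) and 202487_s_at (adjusted p = 0.0592) were lost.

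The remaining replacement genes moved little or in 1 line. H3-3A and H3-3B both encode H3.3, the H3 variant laid down outside replication. Of the 4 H3-3A probe sets, which also list its pseudogenes, 3 fell with shSYK_2 over the lines, by 0.19 (208755_x_at), 0.16 (211940_x_at) and 0.16 (213828_x_at), and 200080_s_at changed by -0.04 (limma adjusted p = 0.408). The 4 H3-3B probe sets changed by -0.07, -0.07, 0.03 and 0.05 and none was called, with the first 2 called under a trended prior and with 16 added to the intensity. H1-10, a linker variant (204805_s_at), changed by -0.04 (adjusted p = 0.659). H2AJ (220936_s_at), an H2A variant, rose by 0.24 (adjusted p = 0.0262), a call lost in 7 of 30 alternatives, including those without MOLM-14 shSYK_2 replicate 2, without U937 shLuc replicate 3, without U937 shSYK_2 replicate 2 and without the array with conflicting labels.

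H2AX, the variant phosphorylated at DNA breaks, differed between lines. On 205436_s_at its log2 intensities in MOLM-14 were 8.45, 8.58 and 8.39 with shLuc, 8.89 and 8.76 with shSYK_1 and 8.85 and 8.77 with shSYK_2. In U937 they were 8.60, 8.57 and 8.52, then 8.64 and 8.63, then 7.86 and 7.90. In HL-60 they were 9.91, 9.79 and 9.84, then 9.85 and 9.87, then 9.82 and 9.78. Both hairpins were above shLuc in MOLM-14, shSYK_2 was below all other arrays in U937, and both hairpins overlapped shLuc in HL-60. With shSYK_2 it rose by 0.34 in MOLM-14 (limma adjusted p = 0.00342), fell by 0.68 in U937 (adjusted p = 3.75e-06) and changed by -0.05 in HL-60. The MOLM-14 call was lost without MOLM-14 shSYK_2 replicate 1. Its average over the lines, -0.13 (adjusted p = 0.0247), lost its call in 5 alternatives, including those without MOLM-14 shSYK_2 replicate 2, without U937 shSYK_2 replicate 1 and without HL-60 shSYK_2 replicate 1. The other 3 H2AX probe sets changed by 0.09, 0.18 and 0.12 and were not called.

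Most falls of replacement probe sets with shSYK_2 were in U937, with 11 of 19 beside 4 in MOLM-14 and 4 in HL-60, where 6.84%, 7.43% and 10.4% of all probe sets fell. The median over the 19 was -0.24 in U937, -0.05 in MOLM-14 and 0.01 in HL-60. In 6 of the 19, both shSYK_2 arrays lay below every shLuc array in each line, where this held for 5.95% of all probe sets: the 2 of H2AZ1, 2 of H2AZ2 and 2 of H3-3A.

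**Figure D3:**
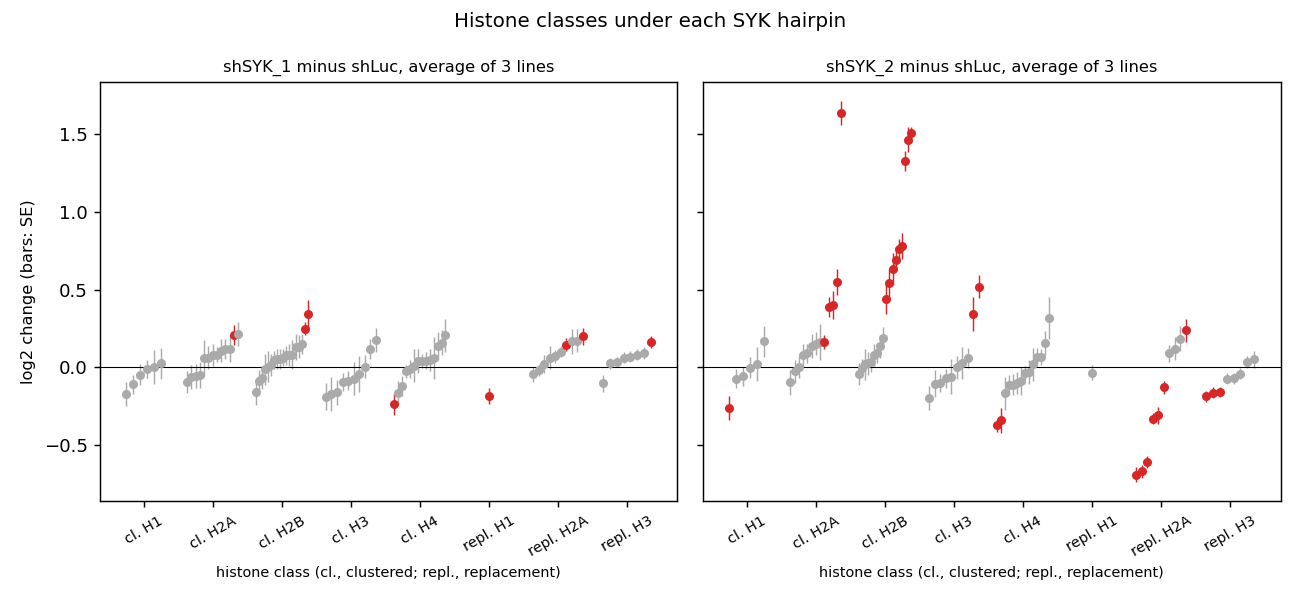
Log2 change over the lines of each histone probe set (points, with bars of 1 SE) by class for shSYK_1 and shSYK_2; red points have an adjusted p below 0.05. With shSYK_2 H2B and H2A points extend up to 1.64 and replacement points down to -0.69, and with shSYK_1 the called points lie between -0.24 and 0.34.

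With shSYK_1 the clustered genes moved little. Over the lines 3 of 61 rose, where 15% of all probe sets rose, and 1 fell, where 14.8% fell. H2BC21 rose by 0.34 (SE 0.0928, limma adjusted p = 0.00901), H2BC12 (209806_at) by 0.25, which is 1.19-fold (SE 0.0422, adjusted p = 0.000199), and H2AC8 by 0.21 (adjusted p = 0.0183), a call lost without U937 shSYK_1 replicate 2 or HL-60 shSYK_1 replicate 2. H4C2 (214516_at) fell by 0.24 (adjusted p = 0.00982). The count of 3 became 6 without either HL-60 shSYK_2 array and 5 without MOLM-14 shLuc replicate 3, U937 shSYK_1 replicate 1 or HL-60 shSYK_1 replicate 2.

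The lines differed in which genes shSYK_1 moved. In MOLM-14 6 clustered probe sets rose, where 10.2% of all rose, led by H2BC21 at 0.72 (limma adjusted p = 0.00367), whose log2 intensities were 2.96, 2.91 and 2.84 with shLuc and 3.67 and 3.57 with shSYK_1. Without MOLM-14 shSYK_1 replicate 2 the count was 3. Limma called 0 clustered probe sets lower there (3 at an unadjusted p under 0.05; 10.3% of all called). In HL-60 5 rose, where 9.81% of all rose, with H2BC12 at 0.46 (adjusted p = 0.000186) and H2AC16 and the probe set shared by H2BC4 and H2BC8 at 0.51 each, both lost without HL-60 shSYK_1 replicate 1, and 1 fell (9.61% of all), H4C2 by 0.62. The 5 became 3 without HL-60 shLuc replicate 3 and 2 without HL-60 shSYK_1 replicate 1. In U937 limma called 0 clustered probe sets higher (4 at an unadjusted p under 0.05; 6.85% of all called) and 1 lower (6.39% of all), the probe set of H2AC19 and H2AC18 by 0.29, lost without U937 shLuc replicate 1 or 2 or either shSYK_1 replicate. No clustered probe set had shSYK_1 arrays clear of the shLuc arrays in the same direction in all 3 lines, where 6.38% of all had them higher and 6.55% lower. Called in all 3 lines by limma were 0 histone probe sets in either direction, with 0 at an unadjusted p under 0.05, where 2.56% of all were called higher and 2.66% lower.

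With shSYK_1, 3 of 19 replacement probe sets rose over the lines and 1 fell, where 15% of all probe sets rose and 14.8% fell. H2AZ2 (212205_at) rose by 0.20 (limma adjusted p = 0.0112), H3-3B (211999_at) by 0.16 and H2AX (205436_s_at) by 0.15, and H1-10 fell by 0.19 (adjusted p = 0.00786). H2AZ1 (200853_at) fell in MOLM-14, by 0.26 (adjusted p = 0.0272), a call lost in 6 alternatives, including those without MOLM-14 shLuc replicate 1 or 2 or either shSYK_1 replicate. The count that rose was 7 with 16 added to the intensity and with a trended prior, and 6 without the dimmest probe sets.

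The 2 hairpins were compared directly, so that the shared shLuc arrays do not enter. Over the lines 13 clustered probe sets were higher with shSYK_2 than with shSYK_1, where 14.2% of all were, and 3 were lower, where 16.5% were. Of 19 replacement probe sets 13 were lower and 1, H1-10, was higher (log2 difference 0.15), a call lost in 12 of 31 alternatives. H2AC6 differed by 1.58 (limma adjusted p = 4.22e-10), H2BC12 by 1.26 on 209806_at (SE 0.0463, adjusted p = 8.07e-12) and 1.34 on 208579_x_at, and H2BC5 by 1.18 and 0.63. H2AZ2 (202487_s_at) differed by -0.74 (adjusted p = 2.52e-09), H2AZ1 (200853_at) by -0.65, H4C3 by -0.35 (adjusted p = 1.33e-05) and H2AX by -0.28. In each line by itself 7 clustered probe sets were higher with shSYK_2 and 4 replacement probe sets lower, where 2.03% and 2.62% of all were.

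In single lines, 10 clustered probe sets were higher with shSYK_2 than with shSYK_1 in MOLM-14, 9 for U937 and 12 for HL-60, where 10.6%, 9.31% and 7.52% of all were. In U937 5 were lower, where 9.67% of all were, and 3 without U937 shSYK_2 replicate 2. H2BC5 differed by 1.80 in MOLM-14, and H2AC6 by 1.91 in U937 and 1.03 in HL-60. In HL-60 the 12 became 7 without shSYK_1 replicate 1 and 8 without the array with conflicting labels, and 0 with that array in shSYK_1. The hairpins differ in target site and in the SYK level reached, and these cannot be told apart here as the source of the difference.

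**Figure D4:**
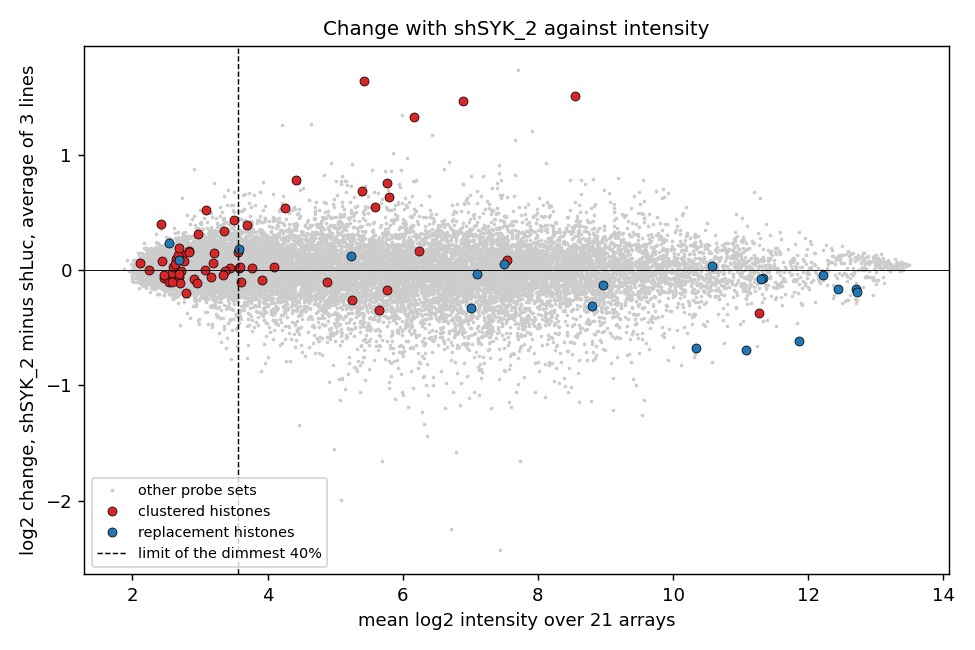
Change with shSYK_2 over the lines (log2, y axis) against mean log2 intensity over all arrays (x axis) for the 80 histone probe sets; the dashed line marks the limit of the dimmest 40%, at 3.57. Of the 24 clustered probe sets right of the line 12 rose, and of the 37 left of it 4 did.

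The share of calls was higher among bright probe sets, for histones and over the array. With shSYK_2, 12 of the 24 clustered probe sets above the level of the dimmest 40% rose (50%), where 17.5% of all probe sets above it did, and 4 of the 37 below it rose (10.8%), where 5.39% of all below it did. The level is a mean over all 21 arrays, those with shSYK_2 included. Medians were 0.13 and 0.03, beside -0.00 over all probe sets above that level.

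Differences between the lines in the mean response to both hairpins were few. Between MOLM-14 and U937 1 clustered and 1 replacement probe set passed in the higher direction, where 1.1% of all did, and limma called 0 clustered lower (2 at an unadjusted p under 0.05; 1.38% of all called). Between MOLM-14 and HL-60 1 clustered and 1 replacement were higher (2.57% of all) and 1 clustered lower (3.34%). Between U937 and HL-60 3 clustered and 1 replacement were lower, where 2.76% of all were, and limma called 0 clustered higher, with 0 at an unadjusted p under 0.05 (2.02% of all called). None of H2BC12, H2BC5 and H2AC6 passed in these comparisons. Between MOLM-14 and U937 the difference was 0.31 for H2BC12 (209806_at, limma adjusted p = 0.071) and -0.37 for H2AC6 (adjusted p = 0.286). The mean response averages shSYK_2 with shSYK_1, and line differences in the change with shSYK_2 alone were not tested.

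Without SYK knockdown the lines already differed in histone RNA. In the shLuc arrays 34 of 61 clustered probe sets were lower in U937 than in HL-60, where 25.6% of all were, and limma called 0 higher (1 at an unadjusted p under 0.05; 22.3% of all called). These were 12 of H2B, 8 of H4, 6 each of H2A and H3 and 2 of H1. H2BC12 (208579_x_at) was lower in U937 by 1.82 (limma adjusted p = 1.32e-09), H2BC5 (209911_x_at) by 1.48 and H2AC6 by 1.46. MOLM-14 exceeded U937 in 19 clustered probe sets (23.6% of all), 10 of them H2B, with H2AC6 at 5.45 ± 0.161 against 3.95 ± 0.228 (SD, n = 3 each; adjusted p = 6.74e-09), and was below it in 5 (23% of all). H2AC25 was among these, with a difference of -1.06. Limma called 0 clustered probe sets higher in MOLM-14 than in HL-60 (1 at an unadjusted p under 0.05; 20.3% of all called) and 18 lower (23.7% of all), with the probe sets of H2AC19 and H2AC18 at -1.42 and -1.35. For this comparison the count was 30 with arrays centred on their medians and 11 without the dimmest probe sets.

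Replacement genes followed other orders. H2AX (205436_s_at) was highest in HL-60, with MOLM-14 lower by a log2 difference of -1.37 (limma adjusted p = 6.89e-12) and U937 by -1.28. H1-10 was lowest in MOLM-14, by -1.44 against U937 and -1.24 against HL-60. The H3-3B probe set 211998_at was higher in U937 than in HL-60 by 0.68.

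**Figure D5:**
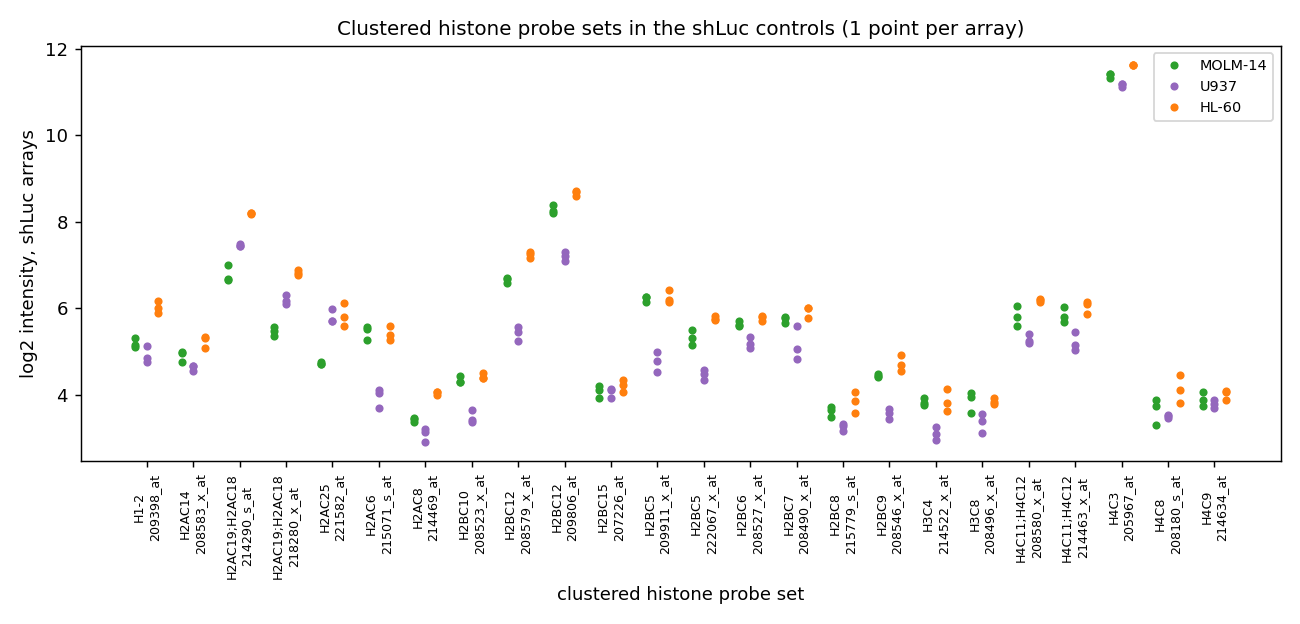
Log2 intensity in the shLuc arrays of each line for the 24 clustered probe sets above the level of the dimmest 40%. Points are arrays; U937 lies below HL-60 for H2BC12, H2BC5 and H2AC6.

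The genes that rose with shSYK_2 were placed on the genome through the promoter table. Of the clustered genes with a window, 46 lie on chromosome 6 and 6 on chromosome 1. Of these, 11 and 4 had a probe set that rose over the lines, where 12.6% of all probe sets rose. The 4 count both H2AC18 and H2AC19, which share 218280_x_at, while their other shared probe set (214290_s_at) and the one that lists H2AC18 alone (218279_s_at) were not called. The octamer was in 6 of 7 H2B genes that rose, all but H2BC5, and in 6 of 8 that were not called. Among clustered H2A genes it was in 3 of 6 that rose and in 4 of 6 that were not called. Divergent neighbours with overlapping windows were not always called together. H2AC6 lies head to head with H2BC4, whose probe set (214455_at, shared with H2BC8) changed by -0.04 (limma adjusted p = 0.716). H2AC11 faces H2BC11, which changed by 0.09 (adjusted p = 0.335). H3C4 and H2BC7, also head to head, both rose, H3C4 on 214472_at and not on 214522_x_at.

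Genes that act with histones in S phase were read from a list. Of 28 measured genes of DNA replication and S phase (30 listed), 27 fell with shSYK_2 over the lines (13.6% of all probe sets), with a median change of -0.57. With shSYK_1 18 fell (14.8% of all) and 2 rose (15% of all), with a median of -0.22. By line the median with shSYK_2 was -1.11 in U937, where 27 fell (6.84% of all), -0.48 in MOLM-14, where 25 fell (7.43% of all), and -0.09 in HL-60, where 9 fell (10.4% of all) and 1 rose (7.97% of all). GINS1, a subunit of the replicative helicase, fell by 0.62 with shSYK_1 and 1.14 with shSYK_2, CDC45, its partner, by 0.35 and 0.87, and MCM3, another subunit, by 0.22 and 0.73. The 2 hairpins' changes share their shLuc arrays. Compared directly, 21 of the 28 were lower with shSYK_2 than with shSYK_1 (16.5% of all) and 6 were not called. The 1 that was higher (14.2% of all) was RFC5, which fell by 1.25 with shSYK_1 and 0.95 with shSYK_2.

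Factors that make clustered histone RNA were measured for 13 of 20 listed genes. With shSYK_2 5 fell and 1 rose over the lines, where 13.6% of all probe sets fell and 12.6% rose. SLBP, which binds the stem-loop, fell by 0.17 with shSYK_1 and 0.52 with shSYK_2 (limma adjusted p = 1.88e-07), and CASP8AP2, a component of the histone locus body, by 0.23 and 0.55 (adjusted p = 4.35e-08). NPAT, the coactivator of histone gene transcription, changed by -0.08 and -0.06 and was not called. HINFP, which binds H4 promoters, fell by 0.21 with shSYK_1 (adjusted p = 0.00326) and changed by 0.07 with shSYK_2 (adjusted p = 0.376). All 24 listed histone chaperones were measured, and 14 fell and 2 rose with shSYK_2, where 13.6% and 12.6% of all probe sets did. CHAF1A and CHAF1B, subunits of the chromatin assembly factor that deposits new H3 and H4, fell by 0.92 and 0.75 with shSYK_2 and by 0.45 and 0.31 with shSYK_1, and ASF1B by 0.64 and 0.29. Whether the cell cycle bears on the histone values was not tested.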

How the data were processed

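Total RNA of 21 cultures was measured on Affymetrix expression arrays. The deposited table holds an intensity for each probe set on each array. The submitters' processing notes name RMA, without a version, as the tool the authors used. The planned tests assumed log2 values. The deposited intensities span 3.23 to 13024.67 and are thus linear, and log2 of them was used with no pseudocount. RMA compresses fold changes, most at low intensity, and arrays limit the precision by their number. The labels describe replicates as separate transductions of the same lines, so p-values measure the spread between those.

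One model with a mean for each of 9 groups was fitted to 22215 probe sets, after 62 controls were left out, with limma 3.58.1 in R 4.3.3 (12 residual and 4.47 prior degrees of freedom). Tests were two-sided, and an adjusted p (Benjamini-Hochberg, all probe sets) below 0.05 was a call. "Rose", "fell", "higher" and "lower" in counts mean called. Symbols come from the platform annotation, updated by gene ID through RefSeq GRCh38.p14, where all 65 member IDs matched. Histone genes that the annotation does not name under the rule were not analysed here. Brightness is used to describe signal; a difference in intensity between probe sets is no measure of relative RNA amount. The fit was tested on simulated data.

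Members and gene lists were chosen with earlier results of these data known. The rule for naming took every replacement probe set and, of the clustered ones, for each average of the lines up to 8 called that rose most and 8 that fell most. It took 4 and 4 for each single hairpin effect, 3 and 3 for each line difference, hairpin difference in a line and shLuc comparison, the brightest probe set of each class and 4 members of each gene list. Other members named were chosen after their values were seen. Alternatives were array centring, quantile normalization, an added 16, leaving out the dimmest 40%, a trended and robust prior, array weights, a replicate block, a move of the array with conflicting labels, single-line models, narrower member sets and leaving out each array.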

Additional observations from a re-analysis of the deposited data

Results flagged for a closer look

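The 9 line differences in the mean response to both SYK hairpins that passed limma's test of the difference itself follow. Differences are signed, and a higher response can be a rise in 1 line beside a fall in another. The response of H2AX (205436_s_at) was higher in MOLM-14 than in U937 by a log2 difference of 0.65 (limma adjusted p = 0.000237). With shSYK_2 this probe set rose in MOLM-14 and fell in U937. Its response in MOLM-14 was also higher than in HL-60, by 0.36 (adjusted p = 0.0145), a call lost in 1 alternative. The other H2AX probe sets were called in neither comparison. They differed by 0.02, 0.29 and 0.12 against U937 and by 0.23, 0.18 and 0.31 against HL-60. For the probe set shared by H2AC19 and H2AC18 (218280_x_at) the response was higher in MOLM-14 than in U937 by 0.62 (adjusted p = 0.0015). For H2AC16 (214554_at) the response was lower in U937 than in HL-60, with a difference of -0.70 (adjusted p = 0.0188) whose call was lost in 4 alternatives. The other 5 were lost in 9 to 18 alternatives each: H2AC11 (207156_at) between MOLM-14 and HL-60 at 0.66 (adjusted p = 0.04), the probe set of H2BC4 and H2BC8 (214455_at) between the same lines at -0.54 (adjusted p = 0.0388), and, between U937 and HL-60, H2BC6 (208527_x_at) at -0.51 (adjusted p = 0.0374), H4C4 (208076_at) at -0.41 (adjusted p = 0.0427) and H2AZ2 (212206_s_at) at -0.31 (adjusted p = 0.026).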

How the results depend on the processing

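Of 203 results for single probe sets, 134 kept their direction and their side of the threshold under every alternative run and none reversed sign while called. The rises of H2BC12, H2BC5 and H2AC6 and the falls of H2AZ1 (200853_at) and H2AZ2 (202487_s_at) with shSYK_2 over the lines were among the 134. Of 438 values that alternatives other than leaving out arrays gave for the 42 counts of calls, 332 stayed within 1.5 times. The other 106 are given here by setting, and, except where the setting itself removes probe sets or arrays, the cause was not tested. Most are counts under 6, dim signal limits the clustered genes, and near-identical sequence limits their naming. In what follows "response" is the mean change with both hairpins, compared between lines.

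With each array centred on its median, clustered probe sets called lower numbered 1 for shSYK_1 in MOLM-14, 2 for shSYK_1 in U937, 0 for the response of MOLM-14 against HL-60, 1 for that of U937 against HL-60 and 30 for shLuc MOLM-14 against HL-60. Those called higher numbered 3 for shSYK_1 in HL-60 and 2 for the response of MOLM-14 against HL-60, and replacement probe sets higher between the hairpins over the lines numbered 2. With quantile normalization the lower counts were 1 for shSYK_1 in MOLM-14, 2 for shSYK_1 in U937, 1 between the hairpins in HL-60, 0 for the response of MOLM-14 against HL-60 and 1 for that of U937 against HL-60. The higher counts were 1 for shLuc MOLM-14 and for shLuc U937 against HL-60, and 2 for replacement between the hairpins. With 16 added to the intensity before log2, 1 clustered probe set was lower between the hairpins in MOLM-14 and 1 in HL-60, 4 had a higher response in MOLM-14 than in U937 and 2 than in HL-60. Replacement probe sets called higher were then 7 for shSYK_1, 0 for shSYK_2 and 2 between the hairpins.

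With the dimmest 40% left out, fewer probe sets were tested. Clustered probe sets called lower were 1 for shSYK_1 in MOLM-14, 0 for shSYK_1 in HL-60 and over the lines, 1 between the hairpins in MOLM-14, 0 for the response of MOLM-14 and 1 for that of U937 against HL-60, and, in shLuc, 3 for MOLM-14 against U937, 11 for MOLM-14 against HL-60 and 21 for U937 against HL-60. Those higher were 2 for shSYK_1 in HL-60 and 2 for the response of MOLM-14 against U937, and replacement ones 6 for shSYK_1, 0 for shSYK_2 and 2 between the hairpins. With a trended and robust prior, 2 were lower for shSYK_1 in MOLM-14, 1 for shSYK_2 in HL-60 and 1 between the hairpins in MOLM-14. There 6 were higher in the response of MOLM-14 against U937 and 1 in shLuc of MOLM-14 against HL-60, and replacement ones numbered 7 for shSYK_1 and 2 between the hairpins. With array weights, 2 were lower for shSYK_1 in U937, 1 between the hairpins in MOLM-14 and 8 in shLuc of MOLM-14 against U937. Those higher were 7 for shSYK_2 in HL-60, 5 between the hairpins in HL-60, 3 and 0 for the response of MOLM-14 against U937 and HL-60, 1 in shLuc of MOLM-14 and 1 of U937 against HL-60, and 0 replacement ones between the hairpins.

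Deviations of same-numbered arrays correlated between -0.203 and 0.0834. The lowest was between the hairpins in HL-60, which includes the array with conflicting labels. With 2 arrays per hairpin group, the deviations of replicates 1 and 2 mirror each other. These values thus cannot settle whether replicate numbers shared between groups mark pairs. With the replicate block, clustered probe sets called lower were 1 for shSYK_1 in MOLM-14, 0 in U937 and 0 over the lines, 1 for shSYK_2 in HL-60, and 0 for the response of MOLM-14 and of U937 against HL-60. Under the block those higher were 1 for shSYK_1 in HL-60, 0 for the response of MOLM-14 against HL-60 and 1 for shLuc U937 against HL-60, and replacement ones were 1 for shSYK_1, 0 for shSYK_2 and 0 between the hairpins.

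With the array of conflicting labels placed in shSYK_1, clustered probe sets called higher were 6 for shSYK_2 in HL-60, 0 between the hairpins there, 5 for shSYK_1 over the lines, 0 for the response of MOLM-14 against HL-60 and 1 in shLuc of the same lines. Those lower were 0 for shSYK_1 in U937, in HL-60 and over the lines, 1 for shSYK_2 over the lines and 2 for the response of MOLM-14 against HL-60. Replacement ones higher were 0 for shSYK_2 and 2 between the hairpins. With models of single lines, 2 were lower for shSYK_1 in MOLM-14 and 0 in U937, 1 between the hairpins in MOLM-14, and 2 were higher for shSYK_1 and 7 between the hairpins in HL-60. Over members with 1 gene symbol only, 3 were higher for shSYK_1 in MOLM-14 and 0 in the response of MOLM-14 against U937. Lower there were 0 for shSYK_1 and 3 for shSYK_2 in U937, 1 and 3 between the hairpins over the lines and in U937, 0 for the response of MOLM-14 against HL-60 and 3 in shLuc of MOLM-14 against U937. Over members without _x_at probe sets, those higher with shSYK_2 were 4 in MOLM-14, 4 in U937, 8 in HL-60 and 8 over the lines, and between the hairpins 4, 3, 6 and 6. In that set 0 were higher in the response of MOLM-14 against U937 and 8 in its shLuc comparison, and lower were 0 for shSYK_1 and 3 for shSYK_2 in U937, 1 and 3 between the hairpins over the lines and in U937, and 20 in shLuc of U937 against HL-60.

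Leaving out 1 array at a time gave, for clustered probe sets higher with shSYK_2, 15 to 19 over the lines, 8 to 12 in MOLM-14, 7 to 10 in U937 and 11 to 16 in HL-60, and for those lower 2 to 4, 0 to 1, 3 to 5 and 0 to 1. With shSYK_1 the higher ones were 3 to 6 over the lines, 3 to 7 in MOLM-14, 0 to 1 in U937 and 2 to 6 in HL-60, and the lower ones 1 to 2, 0 to 1, 0 to 2 and 1 to 1. Between the hairpins the higher ones were 12 to 14 over the lines, 8 to 11, 8 to 10 and 7 to 13, and the lower ones 2 to 4, 0 to 1, 3 to 6 and 0 to 0. For the response the higher ones were 1 to 3 for MOLM-14 against U937 and 0 to 1 against HL-60, and the lower ones 0 to 3 for MOLM-14 and 0 to 5 for U937 against HL-60. In shLuc, 0 to 1 were higher in MOLM-14 and 0 to 1 in U937 than in HL-60. Replacement ones higher were 0 to 2 for shSYK_2 and 0 to 2 between the hairpins, and those lower with shSYK_2 were 8 to 9.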
